A study of Mus musculus with 20 samples.

Results

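The genes described here encode integrins, the cell-surface receptors that hold cells to the extracellular matrix, and laminins, large proteins of basement membranes and of the matrix around cells. They were taken by symbol: 38 of the 51789 rows of the expression table matched the symbols of integrin alpha and beta chains and of laminin chains. These rows comprised 19 integrin alpha, 8 integrin beta, 5 laminin alpha, 3 laminin beta and 3 laminin gamma entries, and 35 of the 38 reached the level needed for testing. Itgad, Itgae and Lama1 did not. Itgam, which encodes the alpha chain of a leukocyte integrin, had a pair of rows: a gene model at chr7:128062640-128118491 on GRCm38 and an overlapping model on the same strand at chr7:128062683-128128160. Reads in the shared stretch could have been split between them, so the overlapping model is reported as uncertain.

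RNA was sequenced from annulus fibrosus (AF), the layered collagen ring of the intervertebral disc, and from nucleus pulposus (NP), the gel that it encloses, both isolated under a microscope from BL6 mice aged 24 months; the labels also call the material primary cells. The mice had received intraperitoneal injections from 18 months of age for 6 months, either of DMSO (vehicle) or of MDL-800 in the same amount of DMSO; MDL-800 is a small molecule described in the literature as an activator of the deacylase SIRT6. No genetic change is labelled in any group, and all groups share the strain, the age and DMSO. Each tissue had 5 libraries under vehicle and 5 under MDL-800, which makes 4 groups, named here by the number in the sample title. The labels do not say how many mice gave these libraries or whether tissue was pooled, so p-values measure the spread between libraries.

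An integrin is a pair of an alpha and a beta chain, and the pairing sets the ligand. Itgb1 pairs with many alpha chains, among them the collagen receptors Itga1, Itga2, Itga10 and Itga11, the fibronectin receptor chain Itga5 and the laminin receptor chains Itga3, Itga6 and Itga7; Itgb2 pairs with Itgal, Itgam, Itgax and Itgad on leukocytes; Itga2b pairs with Itgb3 on platelets; and Itgb4 pairs with Itga6 in hemidesmosomes and Schwann cells. A laminin is a trimer of an alpha, a beta and a gamma chain, so that Lama3 and Lamb3 belong to the laminin of epithelial anchorage, whereas Lama2, Lamb1 or Lamb2 and Lamc1 form those of muscle and nerve. NP cells descend from the notochord, a rod ensheathed by laminin, and are known to attach to laminins through integrins.

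Promoter stretches of 4 members whose levels did not overlap between the tissues are shown, so that those lower and those higher in NP can be set side by side: the 120 bases before the RefSeq start on GRCm38.p6, read 5′ to 3′ on the strand of the gene. Itgam (chr7:128062520-128062639, plus strand) and Lama2 (chr10:27616943-27617062, minus strand) were lower in NP, and Lamb3 (chr1:193301874-193301993, plus strand) and Itga1 (chr13:115101965-115102084, minus strand) were higher. Capitals mark GAGGAA or its reverse complement TTCCTC, the core of the site of PU.1, a transcription factor of myeloid cells.
Itgam: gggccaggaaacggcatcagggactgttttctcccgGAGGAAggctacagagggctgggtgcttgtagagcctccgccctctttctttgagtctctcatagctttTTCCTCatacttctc
Lama2: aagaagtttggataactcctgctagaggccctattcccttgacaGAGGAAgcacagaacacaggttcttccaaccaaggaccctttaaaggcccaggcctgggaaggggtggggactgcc
Lamb3: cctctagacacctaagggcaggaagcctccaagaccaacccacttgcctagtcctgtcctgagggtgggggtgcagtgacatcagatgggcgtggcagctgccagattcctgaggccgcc
Itga1: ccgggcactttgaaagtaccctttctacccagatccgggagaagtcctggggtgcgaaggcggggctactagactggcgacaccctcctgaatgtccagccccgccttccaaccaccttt
Both strands of the 250 bases before each start were searched in the 26 windows that RefSeq gave for 23 of the symbols. GAGGAA was in 13 of the 26 windows (50%), against 23.3% of all 32851 mouse promoter windows, and the matches were not limited to leukocyte genes, since they included Lamb2, Lamb1, Itgb1 and Itga5. Nor were they limited to members lower in NP: 1 of the windows of Lamb3 held 1 match, farther from the start than the 120 bases shown. The other Lamb3 window, at chr1:193301993-193302242, held no match, and its stretch is not shown. The GENCODE model of Lamb3 starts farther upstream, at chr1:193207699. Of the leukocyte chains with a window, Itgam held GAGGAA, while Itgax, Itga4 and Itgb7 did not. GGGCGG, the GC box, was in 9 windows (34.6%, against 32.7%). TCACACC, the core of the T-box site, was in 1 window (3.85%, against 3.33%), TGANTCA of AP-1 was in 1 (against 6.75%) and ACGTG of HIF was in 1 (against 16.6%). These matches describe letters and not binding.

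The depth behind the values was estimated at 12900000 to 22200000 fragments per library, from the steps on which low values lie. The mean was 19200000 ± 2400000 (SD, n = 5) in vehicle NP, 18400000 ± 3180000 in treated NP, 19400000 ± 998000 in vehicle AF and 19800000 ± 1420000 in treated AF. The labelled tissues were checked against markers. All 7 tested NP markers were higher in NP than in AF under vehicle, among them T, the notochord factor brachyury (1399 against 303.8 scaled FPKM), and 5 of 6 AF markers were lower, among them the tendon gene Tnmd (1.11 against 48.2); Fmod was not called. Markers of skeletal muscle, blood, bone, nerve, endothelium and leukocytes were also higher in AF. AF vehicle library 9 carried the highest summed NP markers of the AF vehicle group (15090, against 2491 to 7106 scaled FPKM in the others).

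Levels are given as scaled FPKM: fragments per kilobase of transcript, relative to the mapped fragments of the library, divided by a factor for each library. Fold changes are differences of log2(scaled FPKM + 1), a scale that understates changes of low genes, and a gene was called when its adjusted p was under 0.05 (limma, Benjamini-Hochberg over 16383 genes). Values per library are listed in the order of libraries 1, 2, 3, 5 and 6 for NP vehicle, 15, 18, 19, 20 and 22 for NP MDL-800, 8, 9, 10, 12 and 13 for AF vehicle, and 25, 27, 28, 29 and 30 for AF MDL-800.

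**Figure D1:**
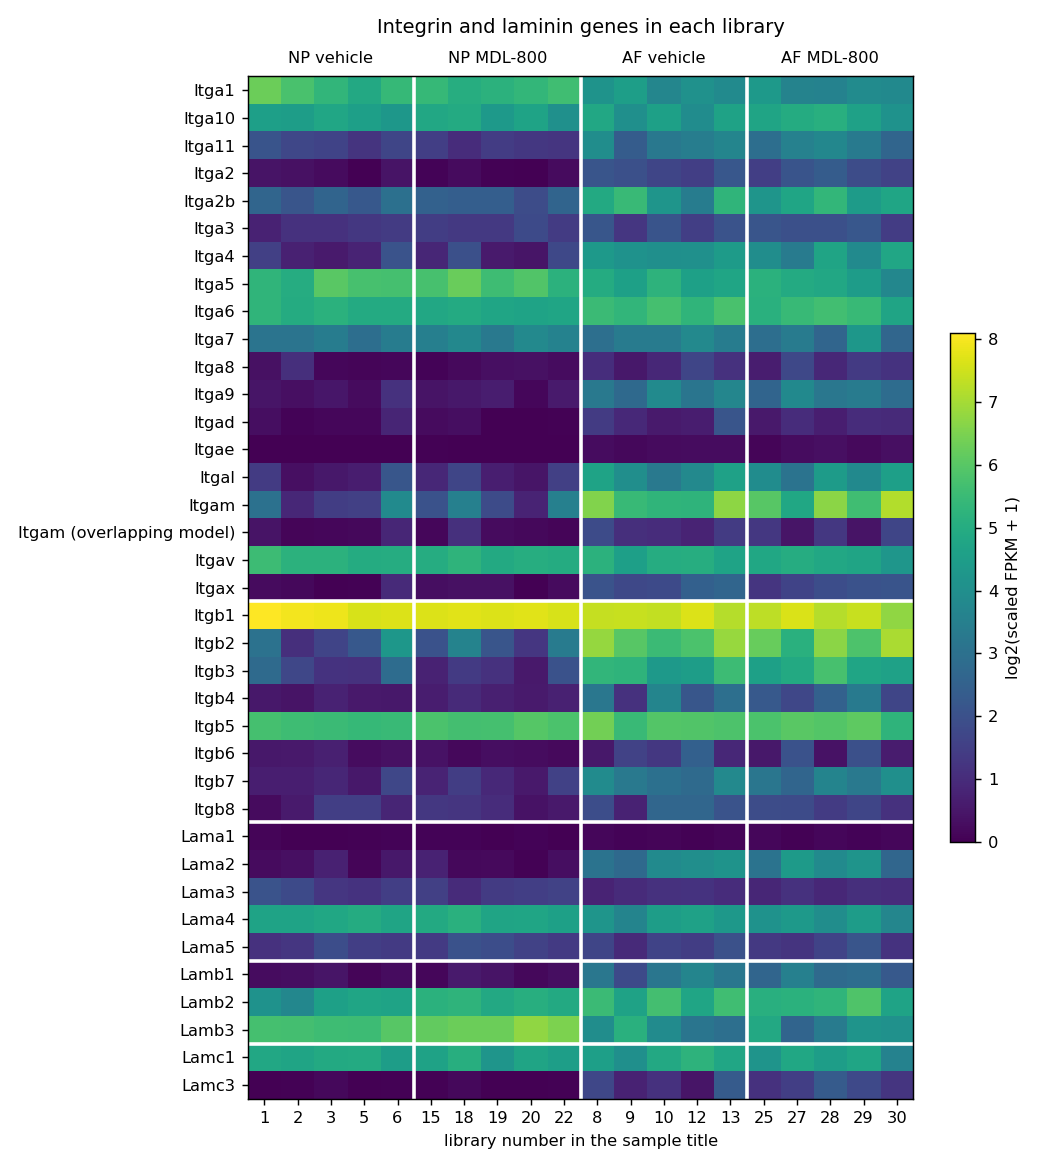
Levels of 37 integrin and laminin rows in the 20 libraries, as log2(scaled FPKM + 1) on the colour scale; white lines separate the groups of libraries and the chain classes. Itgb1 is the brightest row in nearly every library, and the rows of Itgam and Itgb2 are bright in AF and dark in most NP libraries.

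The first comparison asked which chains differ between the disc compartments of vehicle-treated mice. Of the 35 tested members, 7 were higher and 22 lower in NP than in AF, and 6 were not called. Over all genes tested, 55.7% were called, 21.8% higher and 33.9% lower. The median log2 fold change of the members was -0.88, against -0.08 for all genes. For 3 members all NP libraries lay above all AF libraries and for 16 all lay below, 19 in all, where 41% of all genes did not overlap (15.1% higher and 25.9% lower). The higher members included Lamb3, Itga1, Itga5, Lama3, Lama4 and Itgb1. The lower members Itga2, Itgax, Itgb4, Itgb6, Lama2, Lamb1 and Lamc3 had every NP value under 1 scaled FPKM. They reached the level for testing, 1 FPKM in 5 or more libraries, through AF, the tissue where they were higher. The division by class was uneven: of 25 tested integrin chains 3 were higher and 18 lower, while of 10 tested laminin chains 4 were higher and 4 lower. Quantile normalization moved the median of all genes up by 0.27 and the calls over all genes from 3577 higher and 5550 lower to 6309 and 4197; for the members it gave 8 higher and 18 lower. With the GC trend of each library removed, the median of all genes moved up by 0.12 and the members gave 8 higher and 22 lower.

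Itgb1, the beta chain shared by most matrix receptors, had the highest level of the set in both tissues. Its NP vehicle values were 272, 246, 236, 194 and 201 scaled FPKM, and its AF vehicle values were 167, 170.4, 161, 200.3 and 144. The groups overlapped through AF library 12. The difference was 0.44 ± 0.13 (log2, SE; adjusted p = 0.0117). Itgb1 made up 79.5% ± 3.53 (SD, n = 5) of the summed beta chains in NP vehicle and 47.5% ± 8.44 in AF vehicle. In NP the next beta chain was Itgb5, a partner of Itgav in vitronectin binding, with 16.0% ± 0.754 of the class in NP and 16.5% ± 2.58 in AF. Its levels of 45.9 ± 3.63 and 59.6 ± 13.5 were not called different (adjusted p = 0.0612). They were called without AF library 9 (adjusted p = 0.0104) and without scaling (adjusted p = 0.0173). Other fits gave an adjusted p of up to 0.124 with 1 library left out and up to 0.5645 among the alternatives.

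Itga1, the alpha chain of a collagen IV and I receptor, was, with Itga5, 1 of the 2 alpha chains with the highest means in NP vehicle (48.0 and 47.4 scaled FPKM). Its values were 76.2, 53.2, 39.4, 28.8 and 42.2 in NP vehicle against 16.9, 22.0, 12.1, 16.2 and 13.7 in AF vehicle. Every NP library lay above every AF library, by a log2 fold change of 1.47 ± 0.24 (adjusted p = 0.000418). The other collagen receptor chains did not follow it. Itga2 was at 0.354, 0.299, 0.172, 0.00986 and 0.336 in NP, against 3.38, 2.92, 2.22, 1.85 and 3.59 in AF (-1.61 ± 0.16, adjusted p = 2.22e-05), without overlap. Itga11, a fibroblast collagen receptor chain, was at 2.24 ± 0.712 and 9.75 ± 3.89 and was lower in NP, with a log2 fold change of -1.67 (adjusted p = 0.000491). Itga10, the collagen II receptor chain of cartilage, was at 22.4 ± 2.88 and 20.9 ± 5.83 and was not called.

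Itga5, the alpha chain of the fibronectin receptor, was higher in NP at 47.4 ± 12.8 against 28.0 ± 5.68 (0.72 ± 0.20, adjusted p = 0.00975). Itgav, the alpha chain of several RGD receptors, was at 35.8 ± 5.99 and 29.2 ± 5.20 and was not called (adjusted p = 0.116), although it was with quantile normalization (adjusted p = 0.0253) and with the GC trend of each library removed (adjusted p = 0.046). Itga8, the nephronectin receptor chain, was low in both tissues at 0.339 ± 0.443 and 1.18 ± 0.671; its call as lower in NP (-0.70 ± 0.25, adjusted p = 0.0308) was lost when NP library 1, 3, 5 or 6 or AF library 8, 12 or 13 was left out (adjusted p from 0.0526 to 0.0703).

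Among the laminin receptor chains, Itga6 had the highest levels. Its values were 38.1, 30.7, 35.3, 30.0 and 30.1 in NP vehicle and 44.6, 39.2, 50.8, 38.5 and 53.7 in AF vehicle. All NP libraries lay below all AF libraries, with a log2 fold change of -0.45 ± 0.12 (adjusted p = 0.0081). Itga3 was lower at 1.26 ± 0.362 against 2.65 ± 0.942 (-0.66 ± 0.20, adjusted p = 0.0169), a call lost with quantile normalization (adjusted p = 0.462). Itga7, the muscle laminin receptor chain, was at 8.21 ± 1.36 and 9.59 ± 2.24 and was not called; its sign turned with quantile normalization and with the GC trend removed. Itgb4, the hemidesmosome partner of Itga6, was at 0.481 ± 0.139 in NP and 6.32 ± 4.16 in AF, without overlap (-2.07 ± 0.40, adjusted p = 0.0012). In NP, Itgb4 was thus 0.169% ± 0.0541 of the summed beta chains.

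Itga9, a receptor chain for tenascin and other ligands, had the smallest p of the members. Its values were 0.375, 0.268, 0.395, 0.177 and 1.22 in NP vehicle and 8.56, 5.87, 13.7, 7.88 and 12.1 in AF vehicle. The groups were far apart, at -2.82 ± 0.24 on the log2 scale (adjusted p = 9.3e-06). Itgb6 and Itgb8, beta chains of receptors that activate latent TGF-beta, were low and were called lower in NP. Itgb6 was at 0.407 ± 0.167 against 1.88 ± 1.65 (adjusted p = 0.033) and Itgb8 at 1.03 ± 0.767 against 3.49 ± 1.98 (adjusted p = 0.0309). Both calls depended on single libraries. Itgb6 lost it without NP library 1, 2, 5 or 6 or AF library 9 or 10 (adjusted p from 0.0537 to 0.0687), and Itgb8 without NP library 1, 2 or 6 or AF library 10, 12 or 13 (adjusted p from 0.056 to 0.0747).

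The leukocyte chains Itgb2 and Itgam were far lower in NP. Itgb2, the beta chain of leukocyte integrins, was at 7.28, 1.11, 2.15, 3.66 and 18.5 in NP vehicle and at 112, 62.2, 44.9, 55.1 and 113 in AF vehicle (-3.74 ± 0.54, adjusted p = 0.000192). Its partner Itgam was at 7.18, 0.867, 1.77, 1.87 and 13.6 in NP, against 93.7, 42.6, 38.2, 37.8 and 105 in AF (-3.70 ± 0.56, adjusted p = 0.00025). NP libraries 1 and 6 were the highest of their group for both genes, and no NP library reached the lowest AF library. The overlapping model of Itgam was at 0.295 ± 0.312 and 1.43 ± 0.73 (-0.89 ± 0.22, adjusted p = 0.00527).

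Itgal, the partner of Itgb2 on lymphocytes and myeloid cells, was at 1.64, 0.268, 0.445, 0.572 and 3.52 in NP, against 24.8, 14.9, 8.76, 12.9 and 23.7 in AF (-3.06 ± 0.38, adjusted p = 7.7e-05). Itgax, the partner on dendritic cells and some macrophages, was at 0.172, 0.124, 0.0101, 0.0394 and 0.948 in NP, against 3.21, 2.39, 2.55, 4.54 and 5.26 in AF (-1.87 ± 0.23, adjusted p = 7.4e-05). Neither overlapped. Itgad and Itgae, the remaining leukocyte alpha chains, stayed below the level for testing, with AF vehicle means of 1.41 ± 1.22 and 0.186 ± 0.0384; Itgae was listed at 0 in 2 NP vehicle libraries.

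Itga4, a receptor chain for VCAM-1 and fibronectin on leukocytes, was at 1.88, 0.681, 0.506, 0.759 and 3.17 in NP, against 19.6, 16.4, 15.2, 15.8 and 20.5 in AF (-3.05 ± 0.26, adjusted p = 1.1e-05). Its lymphocyte partner Itgb7 was at 0.611, 0.609, 0.820, 0.444 and 2.33 in NP, against 14.1, 8.74, 7.00, 5.93 and 13.0 in AF (-2.46 ± 0.28, adjusted p = 4.6e-05). As for Itgb2, NP library 6 was the highest NP library for both. Itgb3, the beta chain of platelets and osteoclasts, was at 6.01, 2.29, 1.29, 1.23 and 6.19 in NP, against 39.1, 37.4, 20.0, 21.7 and 46.2 in AF (-3.06 ± 0.39, adjusted p = 8.5e-05), again without overlap and with NP libraries 1 and 6 highest. Its platelet partner Itga2b was at 4.85 ± 1.41 and 27.9 ± 14.2 (-2.16 ± 0.36, adjusted p = 0.000505).

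Markers of blood cells moved with these chains. All 9 neutrophil markers were lower in NP, with summed levels of 200.8 to 3103 scaled FPKM in NP vehicle and 7246 to 19170 in AF vehicle; all 9 macrophage markers were lower (68.9 to 399 against 1433 to 2719), as were all 6 B and plasma cell markers (12.5 to 50.5 against 119 to 285), all 5 tested of 6 T and NK cell markers (1.12 to 13.2 against 17.7 to 173), all 7 platelet markers (20.0 to 129 against 358 to 828) and all 5 tested of 7 osteoclast markers (56.3 to 111 against 427 to 818). No marker of these lists was at 0 in all 5 libraries of a group. In bulk tissue, fewer cells of a type and less RNA per cell cannot be told apart, and the share of these cells in the differences was not tested.

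**Figure D2:**
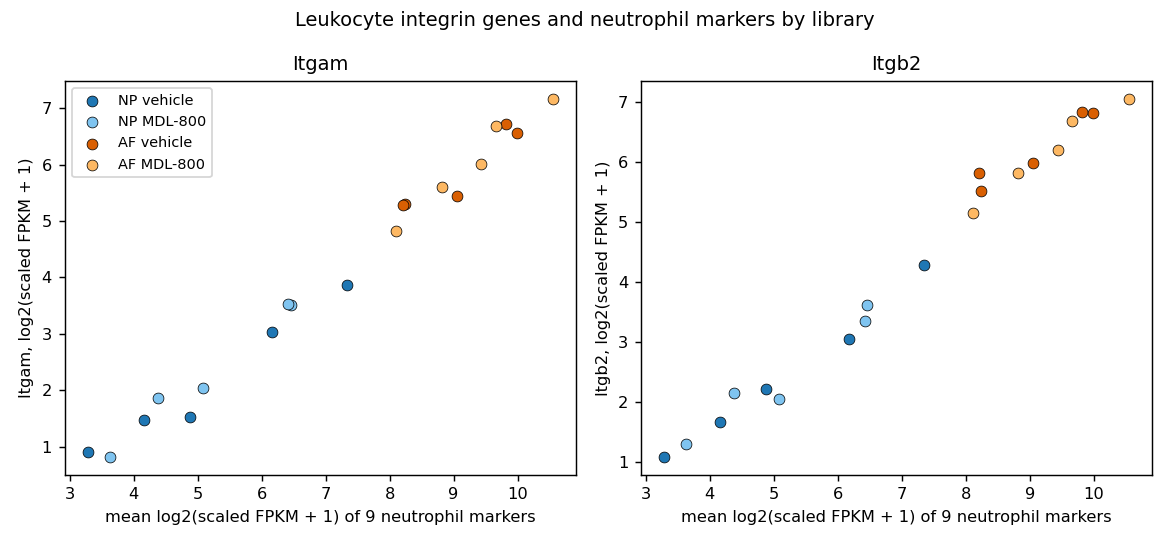
Itgam (left) and Itgb2 (right) in each of the 20 libraries, as log2(scaled FPKM + 1), against the mean of the same measure over 9 neutrophil markers; colours give the groups. Within each tissue the libraries with more neutrophil marker RNA are those with more Itgam and Itgb2, and the NP libraries lie below the AF libraries on both axes.

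Across the 10 AF libraries of both treatments, 10 pairs of a member and a marker list were related, and the same pairs across the 10 NP libraries, 20 relations in all. Itgam followed the neutrophil markers with r = 0.96 (permutation p = 5e-05, adjusted 0.0003) and rho = 0.952 (p = 0.00015, adjusted 0.00075) in AF, and with r = 0.927 without the libraries farthest from the median. Itgb2 did so with r = 0.958 (permutation p = 6e-05, adjusted 0.0003) and rho = 0.976 (p = 4e-05, adjusted 0.0005), and r = 0.943 without those libraries. In NP the same pairs gave r = 0.977 and 0.985 (adjusted permutation p = 0.0002 for both) and rho = 0.964 for both.

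Itga2b followed the platelet markers in AF (r = 0.902, adjusted permutation p = 0.00112; rho = 0.879, adjusted 0.00576; r = 0.84 without the farthest libraries). Itga7 followed the skeletal muscle markers in AF (r = 0.87, adjusted permutation p = 0.00254; rho = 0.794, adjusted 0.0275; r = 0.762 without the farthest libraries) but gave r = 0.21 in NP (adjusted permutation p = 0.626). Itgax followed the macrophage markers (AF r = 0.792, adjusted permutation p = 0.0116; rho = 0.709, adjusted 0.05; r = 0.713 without the farthest libraries). The relations of Itgb3 with osteoclast markers (r = 0.669) and of Itgb4 with Schwann cell markers (r = 0.673) had an adjusted permutation p of 0.0525 each and rested on the farthest libraries, without which r was 0.278 and 0.32. Itgal with B and plasma cell markers (r = 0.526), Lama2 with skeletal muscle markers (r = 0.617) and Lama4 with endothelial markers (r = -0.118) did not pass in AF (adjusted permutation p = 0.145, 0.0849 and 0.779 for r). For Itgal in AF, rho was 0.709 (adjusted permutation p = 0.05), and r was 0.788 without the farthest libraries. Itgal and Lama2 passed in NP for r (0.838 and 0.777, adjusted permutation p = 0.00254 and 0.0116). Their rho in NP was 0.709 and 0.721 (adjusted permutation p = 0.05 for both). With the farthest NP libraries left out, r was 0.771 for Itgal and 0.667 for Lama2. Every NP value of Lama2 was under 1 scaled FPKM. Itga2b and Itgax also passed in NP for r (0.734 and 0.891, adjusted permutation p = 0.0259 and 0.00487). Without their farthest NP libraries r was 0.462 for Itga2b and 0.575 for Itgax. For Itga2b in NP, rho was 0.624 (adjusted permutation p = 0.0807).

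The laminin chains differed in direction. Lama3 and Lamb3, chains of the epithelial laminin, were called higher in NP. Lamb3, the beta chain, was at 51.6, 50.1, 47.1, 45.3 and 63.2 in NP vehicle and at 14.7, 33.8, 13.9, 7.93 and 6.78 in AF vehicle, with no overlap (1.88 ± 0.34, adjusted p = 0.000835). The highest AF value came from library 9, the AF library with the most NP marker RNA; without it the difference was 2.21 on the log2 scale. Lamb3 made up 71.3% ± 6.70 of the summed laminin beta chains in NP vehicle and 25.0% ± 17.7 in AF vehicle.

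Lama3, the alpha chain, was at 2.04 ± 0.786 and 1.06 ± 0.211 (0.53 ± 0.18, adjusted p = 0.0252). This call depended on single libraries and was lost without NP library 1 or 2 or AF library 8 (adjusted p from 0.052 to 0.0618). The levels of these chains were unequal: in NP vehicle, the mean of Lamb3 was 51.5 and that of Lama3 2.04 scaled FPKM.

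Lama2, the alpha chain of muscle and nerve laminin, showed the reverse. Its values were 0.172, 0.248, 0.668, 0.0888 and 0.444 in NP and 7.51, 5.79, 13.6, 14.8 and 16.9 in AF (-3.19 ± 0.27, adjusted p = 9.5e-06). Lamb1, the beta chain of most embryonic laminin, was at 0.193, 0.237, 0.384, 0.0888 and 0.198 in NP, against 8.20, 2.55, 8.07, 11.8 and 8.15 in AF (-2.73 ± 0.29, adjusted p = 2.9e-05). Neither gene overlapped between tissues, and every NP value of both was under 1 scaled FPKM. Lamc3 was at 0.0465 ± 0.0488 against 1.73 ± 1.48 (-1.22 ± 0.31, adjusted p = 0.00574).

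Lama4, the alpha chain of vessel and mesenchymal laminin, was the main alpha chain in both tissues. Its values were 24.9, 24.7, 27.0, 30.7 and 25.6 in NP vehicle and 17.8, 11.6, 21.8, 23.7 and 18.9 in AF vehicle, without overlap (0.51 ± 0.17, adjusted p = 0.0221); the call was lost without NP library 5 (adjusted p = 0.0548). It made up 86.4% ± 2.53 of the alpha chains in NP and 56.6% ± 5.81 in AF, where Lama2 added 33.8% ± 6.04. All 9 endothelial markers were lower in NP, with sums of 15.3 to 26.2 against 79.8 to 165 scaled FPKM, so Lama4 and these markers differed in opposite directions. Lama5, the alpha chain of epithelial and vessel basement membranes, was low in both tissues at 1.76 ± 0.588 and 2.01 ± 0.754 and was not called, with a sign that turned with quantile normalization and with the GC trend removed. Lama1 was lower still, at 0.0431 ± 0.0287 and 0.0704 ± 0.031.

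Lamb2, the beta chain of synaptic, vessel and kidney laminin, was the main beta chain in AF. Its values were 16.5, 12.4, 23.3, 26.2 and 24.9 in NP vehicle and 45.0, 24.3, 50.2, 26.1 and 47.4 in AF vehicle. The groups overlapped, and NP was lower, with a log2 fold change of -0.86 ± 0.26 (adjusted p = 0.0167). Lamc1, the gamma chain of most laminins, was at 27.6, 25.4, 29.4, 30.0 and 21.8 in NP and 22.8, 15.4, 28.3, 36.8 and 26.5 in AF, and was not called (0.09 ± 0.20, adjusted p = 0.726). It made up 83.5% ± 3.99 of the gamma chains in NP vehicle and 85.8% ± 4.07 in AF vehicle.

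**Figure D3:**
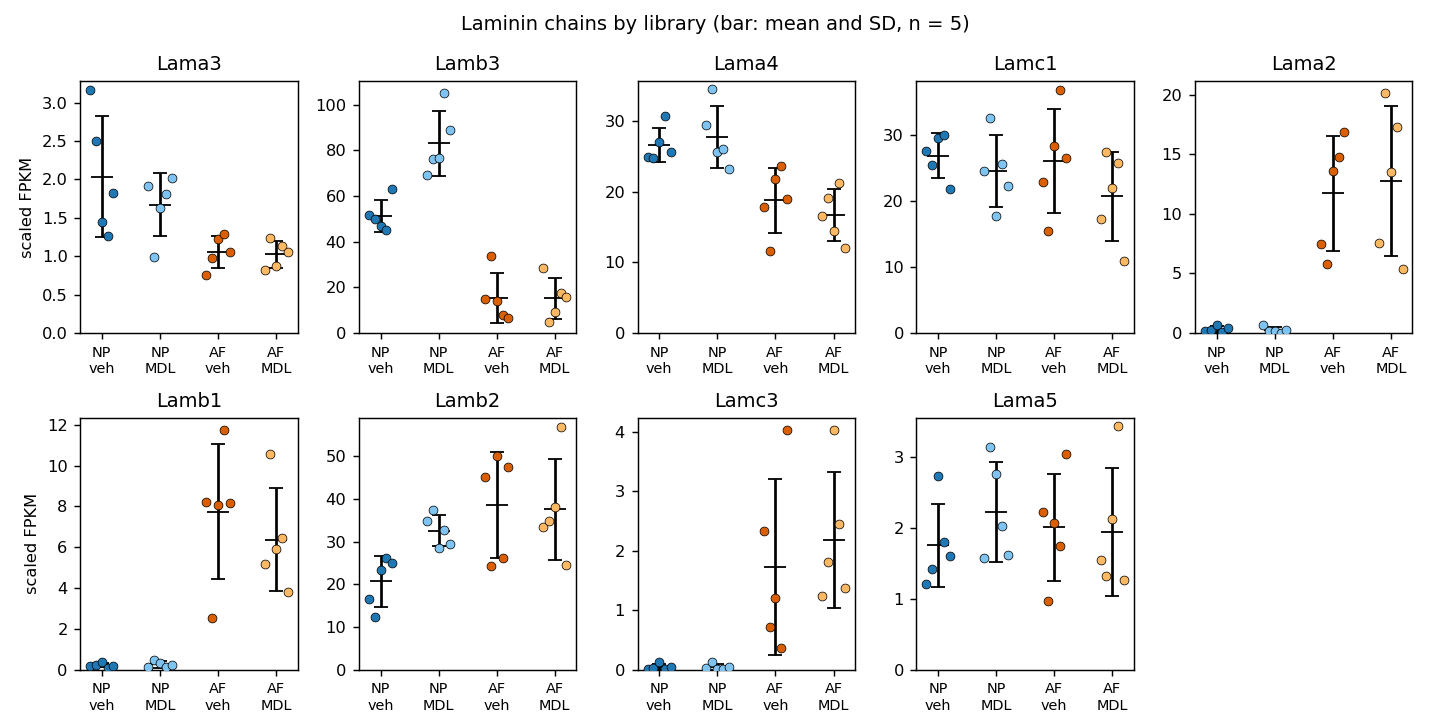
Scaled FPKM of 9 laminin chains in each library of the 4 groups (points), with the mean and SD of 5 libraries (bars). Lamb3 lies above 45 in every NP library and below 34 in every AF library, Lama2 and Lamb1 lie below 1 in every NP library, and Lamb2 is higher in NP MDL-800 than in NP vehicle.

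Markers of muscle and nerve were also lower in NP, as Lama2, Lamb1, Lamb2 and Itgb4 were. All 9 skeletal muscle markers were lower in NP (sums of 12.4 to 1426 against 1091 to 10160 scaled FPKM) and all 6 Schwann cell markers were lower (20.4 to 32.6 against 110.0 to 1099). Their part in the laminin and integrin differences was not tested. Smooth muscle and pericyte markers went the other way, with 3 of 6 higher in NP and 1 lower (752.9 to 1494 against 225 to 637).

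**Figure D4:**
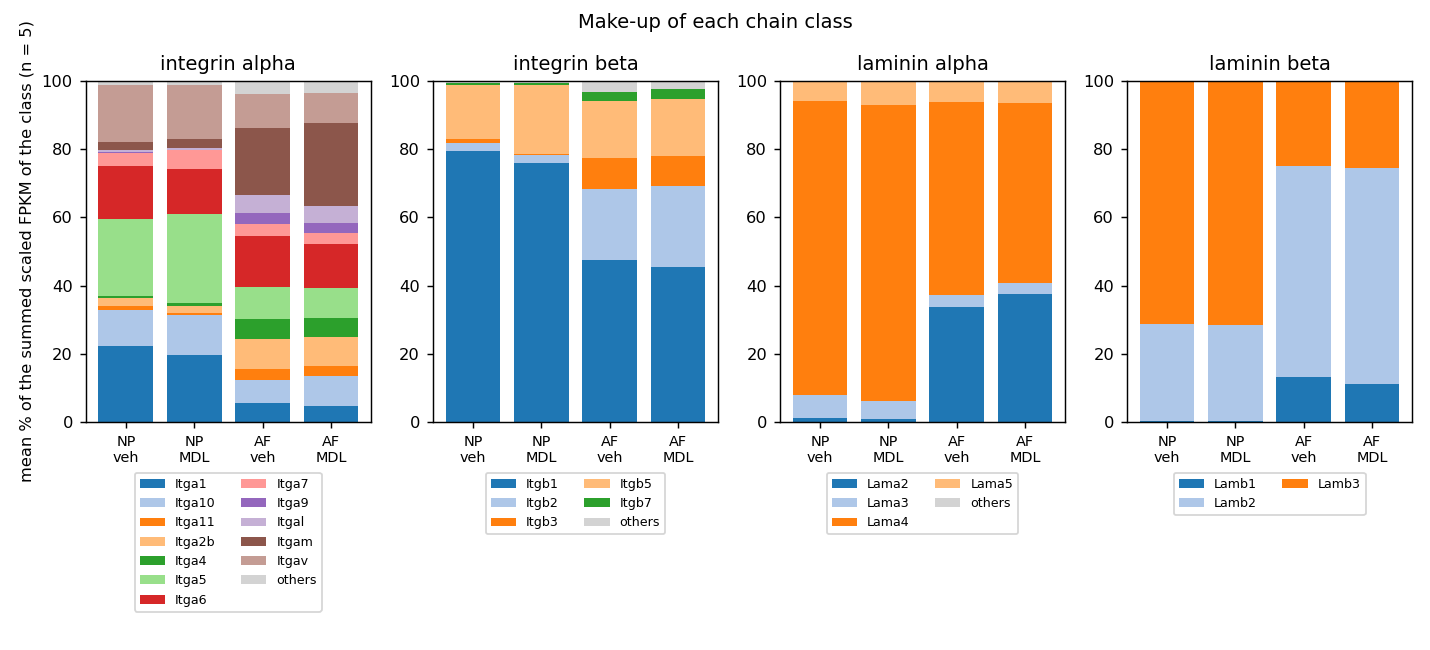
Mean percentage of the summed scaled FPKM of each of 4 chain classes contributed by each chain in the 4 groups (n = 5), with chains under 2% in every group pooled as others. Itgb1 and Lamb3 hold more of their classes in NP, and Itgam, Itgb2, Lama2 and Lamb2 hold more in AF.

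By share, the alpha integrins of NP vehicle were led by Itga5 (22.6% ± 6.51), Itga1 (22.3% ± 6.50), Itgav (16.9% ± 1.73), Itga6 (15.5% ± 1.07) and Itga10 (10.7% ± 1.81). Those of AF vehicle were led by Itgam (19.7% ± 6.34) and Itga6 (15.1% ± 2.33). The leading NP chains Itga5 and Itga1 did not differ beyond their spread. Itgb2 was 2.30% ± 2.58 of the beta chains in NP and 21% ± 6.68 in AF.

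The same comparison in MDL-800 libraries used no library of the vehicle comparison. It gave 7 members higher and 20 lower in NP, against 62.8% of all genes called (25.6% higher and 37.2% lower), and 22 members did not overlap (5 higher and 17 lower), against 49.1% of all genes (18.5% and 30.5%). All 27 members called here were called in the same direction under vehicle, where they were 93.1% of the calls. With quantile normalization, 6805 genes were higher and 4544 lower in place of 4188 and 6102, and 9 members were higher and 16 lower. Over all genes, 8282 were called in both in the same direction, 90.7% of the vehicle and 80.5% of the MDL-800 calls. Lamb2 and the overlapping model of Itgam were called only under vehicle, which does not show that their tissue difference changed.

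**Figure D5:**
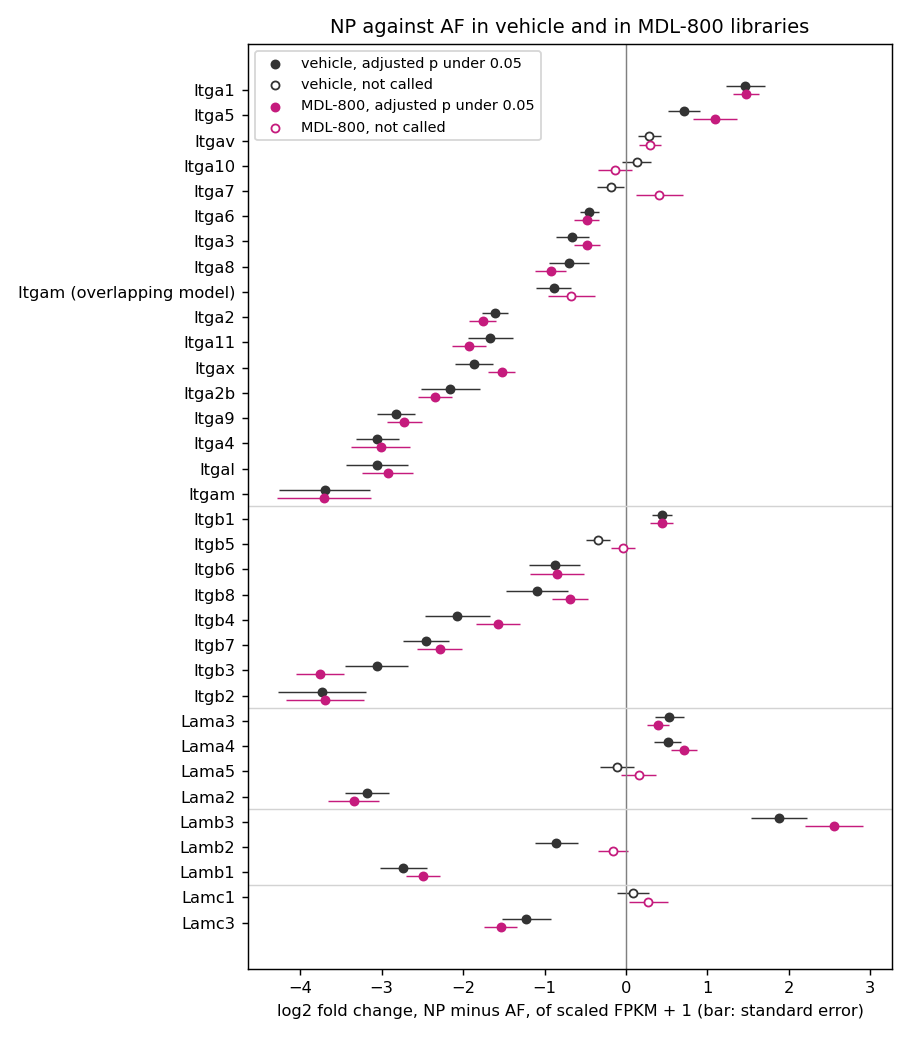
Difference between NP and AF of log2(scaled FPKM + 1) for tested members, with its standard error, in vehicle (black) and MDL-800 (magenta) libraries; filled points are called and open points are not, and grey lines separate the chain classes. Most pairs of points lie close together, and Lamb2 is near 0 in the MDL-800 libraries and lower in NP in the vehicle libraries.

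In the MDL-800 libraries Lamb3 was at 69.2, 76.1, 76.6, 105 and 88.8 in NP, against 28.7, 5.03, 9.26, 17.4 and 15.9 in AF (2.55 ± 0.36, adjusted p = 0.000113). Lama3 was at 1.67 ± 0.409 and 1.03 ± 0.173 (0.39 ± 0.13, adjusted p = 0.0255), a call lost without NP library 15, 20 or 22 or AF library 25 or 28 (adjusted p from 0.0544 to 0.0625). Itga1 (39.6 ± 6.12 against 13.8 ± 3.48) and Itga5 (53.4 ± 14.2 against 25.2 ± 8.75) were higher in NP without overlap. Of the lower members, Itga3 depended on single libraries. Its call was lost without NP library 18, 19 or 22 or AF library 25 or 29 (adjusted p from 0.0502 to 0.058), and with quantile normalization its sign turned. The call of Itgb6 was lost in 7 of 10 fits that left out a library, those without NP library 15, 18, 19, 20 or 22 or AF library 27 or 29 (adjusted p from 0.0643 to 0.0975).

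The second question was whether MDL-800 changed these genes. In NP no member was called by limma, where 0.25% of all genes were (0.232% higher and 0.0183% lower, 38 and 3 genes). At an unadjusted p under 0.05, 4 members were higher (Lamb3, Lamb2, Itgb5 and Itga7) and 2 lower (Itga6 and Itgb6), 6 of 35, where 14.1% of all genes passed (9.11% higher and 4.99% lower). Lamb3 and Lamb2 lay higher and Itga6 lower in all MDL-800 libraries than in all vehicle libraries, 3 of 35 members, against 4.5% of all genes (3.5% higher and 1% lower). The median log2 fold change of the members was -0.004.

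Lamb3 came closest to a call. Its NP values were 51.6, 50.1, 47.1, 45.3 and 63.2 under vehicle and 69.2, 76.1, 76.6, 105 and 88.8 under MDL-800. Each MDL-800 library was above each vehicle library, and the difference was 0.68 ± 0.12 (adjusted p = 0.0563). It was called without NP vehicle library 6, the highest of its group (0.75, adjusted p = 0.0288), and with quantile normalization (0.69, adjusted p = 0.0478). With the GC trend of each library removed it was 0.53 ± 0.12 (adjusted p = 0.124). It was not called in the other alternatives, with an adjusted p from 0.0622 (filter on the mean) to 0.535 (all 4 groups in the fit), or in the other fits that left out 1 library (0.0642 to 0.152).

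Lamb2 had a difference of like size that was not called. Its NP values were 16.5, 12.4, 23.3, 26.2 and 24.9 under vehicle and 34.7, 37.4, 28.6, 32.8 and 29.4 under MDL-800. The difference was 0.67 ± 0.19 (adjusted p = 0.136), and 0.37 ± 0.13 with the GC trend removed (adjusted p = 0.299). The summed laminin beta chains were 72.4 ± 9.57 scaled FPKM in NP under vehicle, against 116 ± 13.8 under MDL-800, while the share of Lamb3 among them was 71.3% ± 6.70 and 71.4% ± 4.55. Other laminin chains were not called: Lamc1 was at 26.8 ± 3.34 and 24.5 ± 5.41, Lama3 at 2.04 ± 0.786 and 1.67 ± 0.409, and Lama4 at 26.6 ± 2.45 and 27.7 ± 4.38.

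Of the integrins, Itga6 was at 38.1, 30.7, 35.3, 30.0 and 30.1 under vehicle and at 27.8, 29.9, 25.9, 25.1 and 26.1 under MDL-800 in NP (-0.27 ± 0.08, adjusted p = 0.173). Itga7 was at 7.57, 7.66, 9.61, 6.57 and 9.63 under vehicle and at 10.2, 12.7, 8.63, 13.0 and 11.1 under MDL-800 (0.40 ± 0.13, adjusted p = 0.214). The groups of Itga6 were separated by less than the spread within the vehicle group, and those of Itga7 overlapped. Itgb5 was at 45.9 ± 3.63 and 54.3 ± 4.59 (0.24 ± 0.08, adjusted p = 0.195); with the GC trend removed its difference was 0.02 ± 0.12 and that of Itga7 0.14 ± 0.13.

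The dependence of levels on GC content separated the NP groups. Its slope, in log2 units per 10 percentage points of GC, ran from -0.285 to -0.007 in the vehicle libraries of NP and from 0.023 to 0.088 in its MDL-800 libraries, while the AF groups overlapped. The vehicle libraries of NP were not alike: libraries 1 and 2 were at -0.285 and -0.278, and libraries 3, 5 and 6 at -0.026, -0.049 and -0.007. The GC content was 55.6% for Lamb3, 58.8% for Lamb2, 57.8% for Itga7 and 57% for Itgb5, against a median of 49.3% over the genes tested. The part of this trend in the treatment differences was measured only by the values with the trend removed, given above.

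In AF no member was called by limma and none had an unadjusted p under 0.05, where 0% and 1.65% of all genes did; none was without overlap, against 0.226% of all genes. The smallest p belonged to Itgax, at 3.21, 2.39, 2.55, 4.54 and 5.26 under vehicle and 1.40, 2.06, 2.74, 3.07 and 3.27 under MDL-800 (-0.38 ± 0.22, unadjusted p = 0.116, limma adjusted p = 1). The second was Itga6, at 44.6, 39.2, 50.8, 38.5 and 53.7 under vehicle and 34.5, 42.3, 48.8, 43.2 and 25.5 under MDL-800 (-0.24 ± 0.18, unadjusted p = 0.203, limma adjusted p = 1). Both groups overlapped in both genes. Lamb3 in AF was at 15.4 ± 10.9 and 15.3 ± 9.03, and Lamb2 at 38.6 ± 12.4 and 37.6 ± 11.9.

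The test of the difference between these effects called no member, 0 of 35, at an unadjusted p under 0.05 either, where 3.73% of all genes passed. Its smallest p were those of Lamb2 (0.70 ± 0.34 greater in NP, unadjusted p = 0.0512, limma adjusted p = 1.0) and Itga7 (0.60 ± 0.34, unadjusted p = 0.0973, limma adjusted p = 1.0). For Lamb3 the difference was 0.67 ± 0.52 (unadjusted p = 0.214).

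The intracellular and matrix partners of these genes were taken from 6 lists. Over all genes tested, 21.8% were higher and 33.9% lower in NP vehicle, with a median of -0.08. Of 27 tested genes of the adhesion machinery that links integrins to actin, 9 were higher and 11 lower in NP vehicle than in AF vehicle, with a median of -0.11. The focal adhesion kinase Ptk2 (37.6 ± 2.83 against 17.5 ± 2.52; 1.07 ± 0.11, adjusted p = 2.6e-05) was higher. Lims1, a partner of integrin-linked kinase (21.6 ± 2.62 against 59.5 ± 8.86; -1.42 ± 0.13, adjusted p = 1.3e-05), and Ptk2b, a kinase of blood cells related to Ptk2 (1.60 ± 1.50 against 19.2 ± 6.41), were lower.

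Of 11 integrin regulators, 2 were higher and 8 lower. The tetraspanins Cd151, a partner of laminin-binding integrins (186 ± 11.8 against 100.4 ± 29.5), and Cd81 (567 ± 35.3 against 331 ± 75.0) were higher. The small GTPase Rap1b, an activator of integrins in platelets and leukocytes (38.0 ± 5.31 against 124 ± 11.2; -1.69 ± 0.11, adjusted p = 4e-06), and the endocytic adaptor Dab2 (6.10 ± 1.60 against 68.8 ± 20.4) were lower.

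Of 13 tested of 18 basement membrane partners, 4 were higher and 3 lower. The heparan sulfate proteoglycan Agrn (17.7 ± 2.31 against 9.85 ± 1.37; 0.79 ± 0.12, adjusted p = 0.000335) and the laminin linker Nid2 (13.4 ± 2.61 against 7.37 ± 1.17) were higher, and the collagen IV chains Col4a1 (1.51 ± 0.828 against 29.4 ± 13.0; -3.55 ± 0.30, adjusted p = 9e-06) and Col4a2 (1.65 ± 0.834 against 15.0 ± 6.41) were lower. Of 11 genes of other laminin receptors and their associated proteins, 5 were higher and 2 lower. The higher genes included the associated sarcoglycans Sgcd (53.2 ± 11.5 against 21.6 ± 6.29) and Sgce (70.5 ± 13.1 against 40.0 ± 6.49). The lower genes were the syndecan Sdc1 (1.47 ± 0.483 against 20.8 ± 8.40) and the sarcoglycan Sgcb (7.21 ± 0.701 against 13.2 ± 4.76). Dst, a plakin that binds Itgb4 in hemidesmosomes and has other isoforms in muscle and nerve, was at 417 ± 117 against 134 ± 38.0 and was the 1 of 2 tested hemidesmosome genes that was called.

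Of 22 tested integrin ligands, 2 were higher and 15 lower, with a median of -1.86. Npnt, the ligand of the Itga8 receptor, was at 53.0 ± 23.3 in NP and 13.7 ± 7.28 in AF (1.93 ± 0.36, adjusted p = 0.00108), opposite in direction to Itga8, and Cyr61 was at 111 ± 47.8 and 59.8 ± 9.51. The fibrillin Fbn1 (0.893 ± 0.367 against 32.5 ± 13.4) and the tenascin Tnc, a ligand of the Itga9 receptor (2.69 ± 1.41 against 62.4 ± 29.4), were lower. With MDL-800, none of the tested genes of the 6 lists was called by limma in either tissue; in NP, the list genes with the smallest adjusted p were the proteoglycan Hspg2 (41.6 ± 8.15 under vehicle, 72.1 ± 9.45 under MDL-800, adjusted p = 0.0563), the laminin receptor Bcam (90.7 ± 16.0 and 157 ± 25.2, adjusted p = 0.0563) and the focal adhesion protein Tns2 (38.5 ± 8.94 and 65.8 ± 8.03, adjusted p = 0.0599), chosen after their values were seen. In NP, 13 of the 86 tested genes of these lists (15.1%) were higher and 6 (6.98%) lower at an unadjusted p under 0.05. Of all genes, 9.11% were higher and 4.99% lower. These list values are given without the GC trend removed, although the slope of that trend separated the NP groups.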

How the data were processed

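RNA was sequenced from 20 libraries, with total RNA depleted of ribosomal RNA by a stranded kit, per the labels' protocols. Reads were aligned with STAR 2.7.11b to mm10, per the submitters' processing notes. The authors deposited 1 table of FPKM values (fragments per kilobase, relative to the mapped fragments) for 51789 genes. The counting program, annotation and handling of reads with several matches are not given in the sources used here, so levels of near-identical or overlapping genes are uncertain. The table was matched to GENCODE M21 for positions and to RefSeq for promoters.

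FPKM values were divided by a median-ratio factor per library (0.933 to 1.06, from the 11308 genes that reached 1 FPKM in each of the 20 libraries). The 16383 genes that reached 1 FPKM in 5 or more libraries were tested as log2(scaled FPKM + 1) with limma 3.58.1 in R 4.3.3, with a mean-variance trend and Benjamini-Hochberg adjustment at 0.05. Each comparison used its 2 groups, and the difference of treatment effects used all 4. The fits of NP against AF under vehicle and of MDL-800 against vehicle in NP were checked on simulated data, and the other fits were not. Relations used scipy 1.17.1 with permutation tests, and the NP relations were added after seeing the data. Depth was estimated from the steps of low FPKM values (82.9% to 87.9% of them within 0.2 of a whole number of fragments), so it is approximate.

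Alternatives changed the pseudocount, filter, scaling, GC trend, trend, samples in the fit and libraries left out. Values in every library are given for the 12 members with the smallest p among those called between tissues under vehicle, for the 2 smallest p of each treatment test and for the highest member of each chain class; up to 2 genes a direction are named from each pathway list. The members, gene lists and marker lists were chosen with earlier results of these data known. Markers of red blood cells (7 of 7 tested lower in NP), bone (6 of 6) and fat (5 of 6) were also examined. Some items are counted but not reported by name here.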

Additional observations from a re-analysis of the deposited data

Results flagged for a closer look

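In each group of 5 libraries, a member was looked at again where 1 library lay apart from the other 4 by more than 0.71 of the range of the group, in 119 groups of a member with a mean of at least 1 scaled FPKM. Chance gives about 1 such group in 20, and 2 were found. Itga3, a laminin receptor chain, was at 2.53 scaled FPKM in NP MDL-800 library 20 and at 1.51 to 1.77 in the others. Itgb3, the beta chain of platelets and osteoclasts, was at 52.3 scaled FPKM in AF MDL-800 library 28 and at 23.4 to 29.4 in the others.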

How the results depend on the processing

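Of the 29 members called between tissues under vehicle, 22 were called in every fit, and of the 27 called under MDL-800, 21 were; 38 of 549 and 33 of 539 fits lost a call with the direction kept. In 1 further fit the sign of a called member turned, Itga3 under MDL-800 (0.061 with quantile normalization). Among members not called, signs turned under vehicle for Itga7 (0.139 with quantile normalization, 0.035 with the GC trend removed), Lama5 (0.372, 0.112, and -0.255 to 0.005 when 1 library was left out, turning without AF library 13) and Lamc1 (-0.078 to 0.223, turning without AF library 9). Under MDL-800 they turned for Itga10 (0.038 with quantile normalization), Lamb2 (-0.289 to 0.004, turning without AF library 29) and Itgb5 (0.057 with quantile normalization, 0.024 with the GC trend removed, -0.169 to 0.033 when 1 library was left out, with 0.013 and 0.033 without AF library 27 and 29, and 0.081 in the 6 libraries with shared numbers). The cause was not tested.

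The number of genes called with MDL-800 in NP was 41, and 7 without the filter, 18 without scaling, 4 with all 4 groups in the fit, 18 without the trend, and 2 (without vehicle library 3 or MDL-800 library 22) to 189 (without vehicle library 6) when 1 library was left out; 1 member, Lamb3, was called with quantile normalization and 0 to 1 when 1 library was left out. In AF 0 to 1 genes were called when 1 library was left out (1 without MDL-800 library 25 or 29), and for the difference 0 to 1 (1 without AF MDL-800 library 30). The relation of Lama4 with endothelial markers was 0.262 without its farthest libraries.

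Each NP vehicle column shares a number with an AF vehicle column. Under MDL-800, NP libraries 19, 20 and 22 share a number with AF libraries 27, 28 and 30, and the others do not. With a replicate block by that number, chosen after seeing the data, 8783 genes, 6 members higher and 21 lower were called under vehicle, and under MDL-800 5 and 17 members with the block against 6 and 18 in the same 6 libraries without it. With the group mean of each gene subtracted, same-numbered libraries correlated at 0.079, 0.016, 0.176, -0.178 and 0.285 under vehicle. Under MDL-800 they correlated at 0.012, -0.176 and 0.17. Differently numbered NP and AF libraries gave -0.372 to 0.327 under vehicle and -0.17 to 0.235 under MDL-800. The numbers were thus not shown to pair libraries. Values far below 1 scaled FPKM rest on fewer fragments, such as those of Itgae and Lama1 in all groups and the means of Itgad and Itga8 in NP.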
